A study of Mus musculus with 8 samples.

Results

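Probes for 10 Serpina genes, Serpina1a, Serpina1b, Serpina1c, Serpina1d, Serpina1e, Serpina3c, Serpina3k, Serpina3m, Serpina3n and Serpina6, were followed across 8 mouse liver arrays. A probe belonged to the set if it was not a control and its gene name or RefSeq accession mapped to one of these genes. This gave 17, for all 10 genes, of the 149782 non-control probes, and all 17 were among the 54636 probes tested. The 10 genes had been picked with the difference between these same arrays in view, so their values are given as a description; where a call of the fit over all probes is named for them, it supports nothing by itself. RNA came from whole livers of male mice, with 4 arrays labelled control, from normal mice, and 4 labelled oxaliplatin, from mice injected into the peritoneum with this platinum drug every week for 6 weeks to model hepatic sinusoidal obstruction syndrome; in this syndrome the narrow blood channels of the liver are damaged and blocked. The series' design text calls the 4 arrays of each group biological replicates; the labels used here give no strain, age, dose or further allele. In whole liver, fewer cells of a type and less RNA per cell cannot be told apart.

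Serpins are protease inhibitors that act once: the protease cuts an exposed loop of the serpin and is then trapped on it. Hepatocytes secrete many clade A serpins into plasma. The Serpina1 genes encode forms of alpha-1-antitrypsin, the main plasma inhibitor of neutrophil elastase, in several near-identical copies in the mouse. The Serpina3 genes are likewise a multiplied mouse family, related to alpha-1-antichymotrypsin. Serpina6 encodes corticosteroid-binding globulin, which has the serpin fold but carries glucocorticoids in blood and inhibits no protease.

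Values are log2 signals relative to the 75th percentile of the same array, and differences are oxaliplatin minus control, ± SE with 4 arrays per group. Since each probe binds with its own strength, no level is set against that of another probe. A probe is "called" where limma's adjusted p over all tested probes was under 0.05. A "catalogue" probe is one of Agilent's own, with a position in mouse genome build mm9; a "custom" probe was designed for this array and has no position in the files. Of the 10 genes, 7 had 1 probe of each kind and 3 had a custom probe alone.

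Because the copies are so alike, the bases of the probes decide which transcripts a spot can report. The custom probes of Serpina1b, Serpina1c, Serpina1d and Serpina1e are 4 versions of the same stretch, and a run of 27 bases is identical in all of them. The first window below shows, in capitals, the bases at which they differ, counted from 1 at the 5′ end of the window.
Serpina1b custom: gaccaccctaCgaTgtcatccttccttctg
Serpina1c custom: gaccaccctaAgaTgtcatccttccttctg
Serpina1d custom: gaccaccctaAgaAgtcatccttccttctg
Serpina1e custom: gaccaccctaAgaAgtcatccttccttctg

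Against the Serpina1b window, the Serpina1c window carries C11A, and the Serpina1d and Serpina1e windows carry C11A and T14A. The Serpina1d and Serpina1e windows are the same, and these genes are separated only further along the probe. There a short block, in capitals, differs in sequence and, for Serpina1e, in length. Not every base of this block differs between the probes.
Serpina1b custom: gggttccTTCcattaaacac
Serpina1c custom: gggttccTTCcattaaacac
Serpina1d custom: gggttccCTTcattaaacac
Serpina1e custom: gggttccTTTCcattaaacac

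The longest identical run was 43 bases between the Serpina1b and Serpina1c custom probes and 41 bases between those of Serpina1d and Serpina1e. The Serpina1d catalogue probe shared 59 bases with the Serpina1d custom probe, so both read the same stretch, and 42 bases with the Serpina1e custom probe. The Serpina1a custom probe stood apart, with at most 9 bases in common with a probe of another Serpina gene. The Serpina1c catalogue probe shared at most 11.

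The custom probes of Serpina3c, Serpina3k and Serpina3m are likewise 3 versions of a common stretch, with 29 bases identical in all and 36 between Serpina3c and Serpina3k. Their shared window ends in the bases that separate Serpina3c from the other two.
Serpina3c custom: ggcattggcaaatacacagagttccaGtaT
Serpina3k custom: ggcattggcaaatacacagagttccaAtaC
Serpina3m custom: ggcattggcaaatacacagagttccaAtaC

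Against Serpina3c, the Serpina3k and Serpina3m windows carry G27A and T30C. The catalogue probe of Serpina3c and both probes of Serpina3n, whose first bases are shown next because their values disagree within a gene, shared no such run with another gene's Serpina probe.
Serpina3c catalogue: gactctgagatggaccctatatgtggatct
Serpina3n catalogue: ttggcatgcctggattagatagtgactaac
Serpina3n custom: cctcacacaaaagaggaacaccaccaacca

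The longest run shared with a probe of another Serpina gene was 10 bases for the Serpina3c catalogue probe, 7 for the Serpina3n catalogue probe and 11 for the Serpina3n custom probe. Matches to transcripts were not examined, so a probe is taken to report the gene it is named for together with any close copy.

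The arrays were first checked against their labels. Of 12 targets of p53, a factor that DNA damage activates, 10 were called lower on the arrays labelled oxaliplatin and 0 higher by limma over 1 probe per gene (0 higher also at an unadjusted p under 0.05), among them Phlda3 at -3.57 ± 0.17, Ccng1 at -1.58 ± 0.11 and Polk at -0.75 ± 0.09 (adjusted p = 0.000214, 0.000889 and 0.00368, limma, n = 4 per group). Platinum drugs damage DNA, and p53 raises these genes when active; every direction given here follows the labels, and an exchange of the labels was not tested. Between 27.2% and 40.9% of non-control probes were well above background on an array. Hepatocyte markers had a summed level of 12.97 to 13.02 in control and 13.05 to 13.24 in oxaliplatin, with 2 of 9 called higher. Macrophage markers were called in 3 of 10 genes, 2 higher and 1 lower, and erythroid markers in 5 of 8, 4 higher and 1 lower, with a summed erythroid level of 9.47 to 11.83 in control and 11.52 to 12.51 in oxaliplatin. Sinusoidal endothelial and stellate markers had 1 lower call each among 10, and lymphocyte markers 2 higher among 8. The part of these cells in the values below was not tested.

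All 17 probes were well above background on all 8 arrays, and none of their 136 spots was saturated or carried an outlier flag. The brightest member spot reached 19.2% of the scanner's saturation value, at a signal of 149479. The brightest non-control spot of any probe on an array lay between 129303 and 315745, so this member spot was near the top of the signals measured. The part of this position in the differences was not tested. The difference was positive for 15 probes and negative for 2, with a median of 0.38 against -0.09 over all tested probes. The fit over all probes called 7 of them higher and 2 lower; over all tested probes 7.42% were called higher and 11% lower, 18.4% in all. The 2 groups did not overlap for 14 of the 17 probes, 12 of them higher and 2 lower in oxaliplatin, against 9.83% and 17.2% of all tested probes, 27% in all. As the genes were chosen on this contrast, nothing is read from these counts. Of the 17 probes, 4 differed by more than 2-fold: both Serpina6 probes and the catalogue probes of Serpina3c and Serpina3n.

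**Figure D1:**
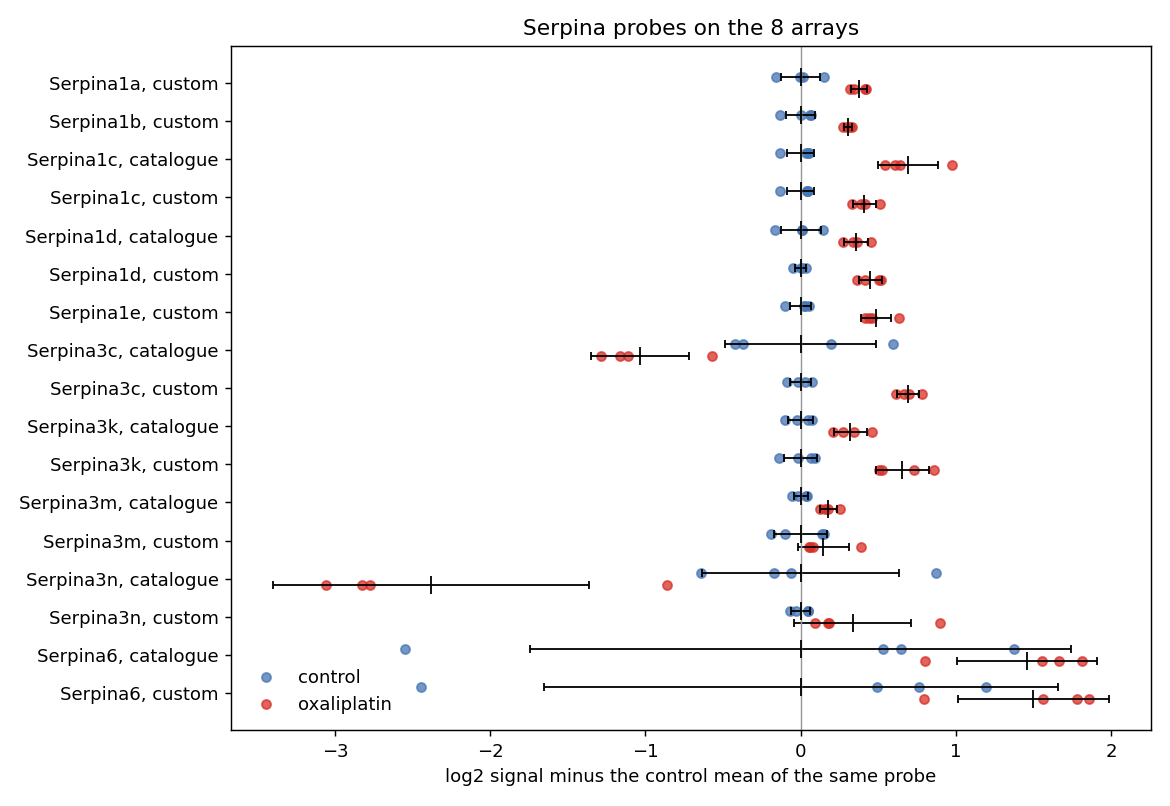
Log2 signal of each of the 17 Serpina probes on each of the 8 arrays, minus the control mean of that probe; blue points are the 4 control arrays, red points the 4 oxaliplatin arrays, black bars the group mean ± SD. The oxaliplatin points of the Serpina1 probes lie to the right of all control points of the same probe (with arrays centred on the median of all probes, 6 of these 7 probes turn negative), whereas the Serpina3c and Serpina3n catalogue probes lie to the left.

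The alpha-1-antitrypsin genes had differences of 0.31 to 0.69 on the log2 scale in all 7 probes, which is 1.24-fold to 1.62-fold toward the oxaliplatin arrays, in the scaling used here (6 of the 7 were negative in 1 other, given below). The groups overlapped for none of them, and 5 of the 7 were called higher. Over all tested probes, 9.83% were higher without overlap and 7.42% were called higher, and shares among bright probes are given below. Nothing is read from these counts either. The pooled SD of the Serpina1 probes within the groups was 0.058 to 0.15, against a median of 0.24 over all tested probes. That median is set mainly by dimmer probes, as 17763 of them had a mean level under 0 and 26666 a level from 0 to 4. No such median was taken over probes of like brightness, so the spread is not a trait of these genes by this comparison.

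Serpina1e read 10.99, 10.96, 10.96 and 10.84 on the 4 control arrays and 11.38, 11.35, 11.40 and 11.57 on the 4 oxaliplatin arrays. Each oxaliplatin array was above each control array, and the difference was 0.49 ± 0.10, called higher. The Serpina1d custom probe read 10.89, 10.86, 10.85 and 10.80 in control and 11.37, 11.22, 11.26 and 11.36 in oxaliplatin, a difference of 0.45 ± 0.09, called higher. The Serpina1d catalogue probe, which covers the same bases, gave 0.36 ± 0.11 and was not called, with controls from 10.64 to 10.95 and oxaliplatin from 11.08 to 11.26. The same stretch of the same gene thus fell on both sides of the threshold with nearly the same difference.

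The Serpina1c catalogue probe had the largest difference of the alpha-1-antitrypsin probes. It read 9.18, 9.19, 9.17 and 9.004 in control and 9.75, 9.68, 9.77 and 10.11 in oxaliplatin, which gave 0.69 ± 0.12, called higher. Oxaliplatin replicate 4 was the highest array and control replicate 4 the lowest. In the file, this probe lists accessions of Serpina1b, Serpina1d and Serpina1e beside its own, so it is not specific to Serpina1c by its own annotation. The Serpina1c custom probe read 11.17, 11.17, 11.18 and 10.997 in control against 11.52, 11.46, 11.54 and 11.64 in oxaliplatin, a difference of 0.41 ± 0.10, called higher.

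Serpina1a, whose probe shares no long run with another Serpina probe, read 10.47, 10.78, 10.65 and 10.63 in control and 11.06, 10.98, 10.95 and 11.05 in oxaliplatin. The difference was 0.38 ± 0.10 and was called, but the call was lost on leaving out any array except control replicate 2, with differences from 0.32 to 0.43. Serpina1b had the smallest difference, 0.31 ± 0.10, and was not called over all probes, though it was over 1 probe per gene; its controls lay between 10.99 and 11.19 and its oxaliplatin arrays between 11.39 and 11.45, again without overlap. The call of the Serpina1c custom probe was lost without control replicate 3, oxaliplatin replicate 3 or oxaliplatin replicate 4. The calls of the Serpina1c catalogue probe, the Serpina1d custom probe and Serpina1e remained on leaving out any single array.

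These small differences rest on the scaling of the arrays. When each array was centred on the median of all its non-control probes, tested or not, 6 of the 7 Serpina1 probes turned negative. The median difference of the tested probes moved from -0.09 to -0.72, and the Serpina1 median became -0.22. Other processing moved the Serpina1 median from the 0.41 found here in both directions. It was smaller at 0.22 with normexp, 0.15 with quantile normalization and 0.20 in the authors' deposited log2 values. The Serpina1 median was larger at 0.52 when the 75th percentile was taken over probes detected on all arrays. Among arrays of the first run name alone, described below, the Serpina1 median was 0.46. Relative to the median of all tested probes it was 0.51 here and also 0.51 with median centring, which shifts all probes of an array alike. It was 0.30, 0.21 and 0.24 with normexp, quantile normalization and the deposited values, and -0.03 when dim probes were kept in. No Serpina1 probe changed sign under any of the other 21 alternatives.

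**Figure D2:**
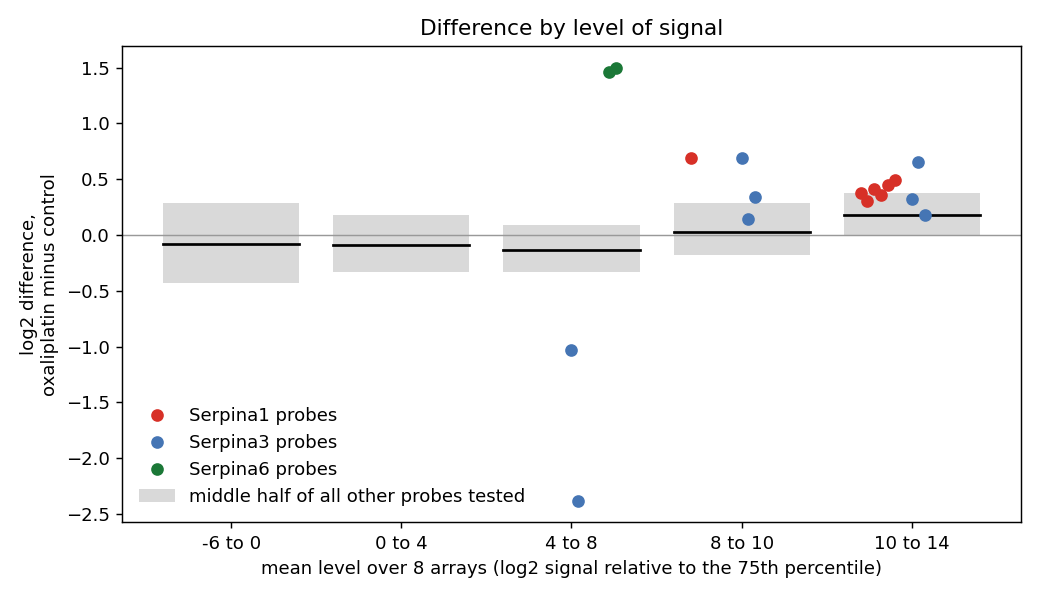
Log2 difference, oxaliplatin minus control, of the Serpina probes (points, coloured by family) beside all other tested probes with a similar mean level; grey bars span the interquartile range of the other probes and black lines mark their median. In the brightest range the other probes have a median of 0.18, and 6 of the 7 Serpina1 probes lie between 0.31 and 0.49 there (all 6 turn negative with arrays centred on the median of all probes).

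The difference also moved with the brightness of the probes. Among the 143 other tested probes with a mean level of 10 or more, where 6 of the 7 Serpina1 probes lay, the median difference was 0.18, 74.1% were positive and 25.9% were called higher, against 0.699% called lower. For 44.8% of these bright probes the oxaliplatin arrays lay above all control arrays without overlap. Among the 8992 other probes with levels from 4 to 8, the median was -0.13 and 4.99% were called higher. Albumin (Alb), the main plasma protein made by hepatocytes and one of these bright genes, differed by 0.56 ± 0.08 (adjusted p = 0.00708, limma over 1 probe per gene, n = 4 per group; -0.07 with arrays centred on the median). The differences of 6 of the 7 Serpina1 probes therefore lie in a range where 25.9% of the other probes were also called higher. The Serpina1c catalogue probe lay in the range from 8 to 10. The 1055 other probes there had a median of 0.03, and 9.95% were called higher. The part of brightness in the Serpina1 differences was not tested. With cyclic loess, a scaling added after this was seen, the Serpina1 median was 0.31 and 4 of the 7 Serpina1 probes were called higher, without Serpina1a. Of all 54636 tested probes, 5410 were called higher with this scaling.

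The antichymotrypsin-like genes did not move as one group. Of their 8 probes, 6 had a positive and 2 a negative difference (with arrays centred on the median of all probes, 2 and 6), 2 were called in each direction, and the groups overlapped for 1 probe. Over all tested probes 7.42% were called higher and 11% lower, and the groups did not overlap for 27%. For Serpina3c and Serpina3n the direction differed between the 2 probes of the gene.

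**Figure D3:**
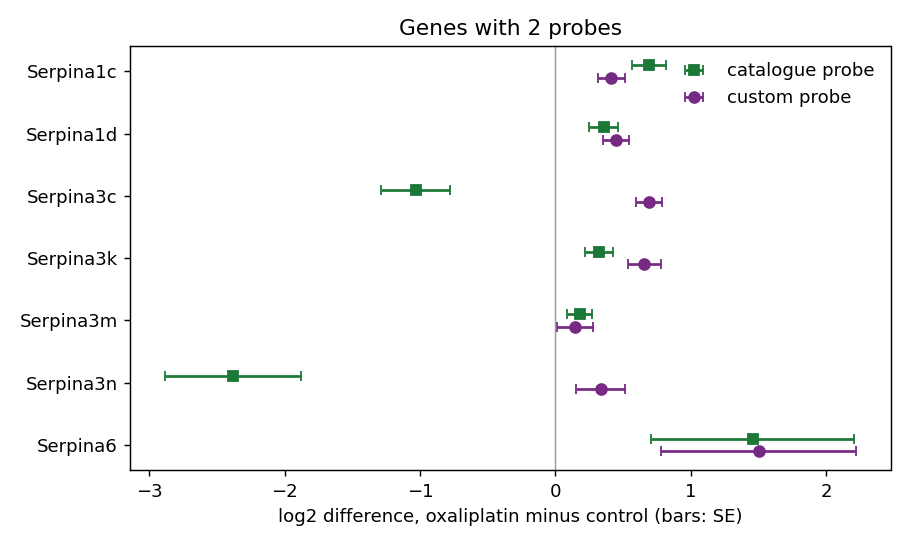
Log2 difference, oxaliplatin minus control, ± SE, of the catalogue probe (green squares) and the custom probe (purple circles) of the 7 genes with both. Serpina3c and Serpina3n have the 2 probes on opposite sides of 0, at -1.03 and 0.69 and at -2.38 and 0.34 (the Serpina3n custom probe also turns negative with arrays centred on the median of all probes, as do Serpina1d, Serpina3m, the Serpina1c custom probe and the Serpina3k catalogue probe).

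Serpina3n encodes a secreted inhibitor of granzyme B and of leukocyte proteases, known as a gene that rises in the acute phase response. Its catalogue probe, at chr12:105651918-105651977 on the plus strand of mm9, had the largest difference of all 17 probes. It read 7.96, 8.43, 8.54 and 9.47 in control and 7.74, 5.82, 5.78 and 5.54 in oxaliplatin. The groups did not overlap, but oxaliplatin replicate 1 lay just below the lowest control, while the other 3 lay more than 2 below it. The difference was -2.38 ± 0.50, or 5.20-fold lower, and was called; it ranged from -2.89 to -2.09 on leaving out each array and kept its call each time.

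The Serpina3n custom probe read 8.76, 8.69, 8.64 and 8.76 in control and 9.61, 8.89, 8.89 and 8.80 in oxaliplatin. All 4 oxaliplatin arrays were slightly above the controls, oxaliplatin replicate 1 clearly so, and the difference was 0.34 ± 0.18, not called. Without that array it was 0.15. The 2 probes thus gave opposite directions for Serpina3n, with a difference of -2.72 between them, catalogue minus custom. Yet within the groups they moved together: over the 8 arrays, taken as deviations from the group means, their correlation was 0.85, given as a description because oxaliplatin replicate 1 is the highest of its group on both. Which of the 2 probes follows the mature Serpina3n transcript was not tested.

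Serpina3c encodes a kallikrein-binding inhibitor. Its catalogue probe, at chr12:105385352-105385411 on the minus strand of mm9, read 7.86, 7.91, 8.48 and 8.88 in control and 7.71, 6.99, 7.12 and 7.17 in oxaliplatin. Control replicates 3 and 4 were higher than 1 and 2, oxaliplatin replicate 1 was close to the lower controls, and the groups did not overlap. The difference was -1.03 ± 0.26, called lower, and the call was lost without control replicate 3 or without oxaliplatin replicate 2, 3 or 4. The custom probe of the same gene read 9.40, 9.45, 9.35 and 9.29 in control and 10.16, 10.04, 9.99 and 10.07 in oxaliplatin, a difference of 0.69 ± 0.10, called higher without the loss of any array changing it. The Serpina3c probes therefore also pointed in opposite directions, by -1.73 catalogue minus custom, and within the groups they did not move together (correlation -0.22 over 8 arrays). The custom probe is the one that shares 36 bases with Serpina3k.

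Serpina3k encodes contrapsin, a trypsin-like protease inhibitor of mouse plasma. Its custom probe read 10.46, 10.22, 10.43 and 10.35 in control and 11.23, 10.89, 10.87 and 11.10 in oxaliplatin, which gave 0.66 ± 0.12, called higher. This was close to the Serpina3c custom probe, with which it shares most of its shown window. Its catalogue probe, at chr12:105583645-105583704 on the plus strand of mm9, gave a smaller difference: controls lay from 10.72 to 10.90, oxaliplatin arrays from 11.04 to 11.28, and the difference was 0.32 ± 0.10, not called over all probes but called over 1 probe per gene.

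Serpina3m had the smallest differences of the 10 genes. Its catalogue probe, at chr12:105632342-105632400 on the plus strand of mm9, went from 11.13 to 11.22 in control and from 11.31 to 11.44 in oxaliplatin, a difference of 0.18 ± 0.09 without overlap and not called; it turned to -0.45 with arrays centred on the median and was also negative with quantile normalization and in the authors' deposited log2 values. Its custom probe read 8.63, 8.54, 8.87 and 8.88 in control and 9.12, 8.78, 8.79 and 8.81 in oxaliplatin, which gave 0.15 ± 0.13 with overlapping groups. Oxaliplatin replicate 1 was the highest array of its group for this probe too, as it was for both Serpina3n probes.

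Serpina6, the corticosteroid carrier, had 2 probes that followed each other closely from array to array. The catalogue probe, at chr12:104884880-104884939 on the minus strand of mm9, read 6.21, 7.06, 6.33 and 3.13 in control and 6.48, 7.50, 7.35 and 7.24 in oxaliplatin. The custom probe read 5.05, 5.74, 5.31 and 2.11 in control and 5.35, 6.41, 6.33 and 6.11 in oxaliplatin. On both, control replicate 4 lay about 3 log2 units below the other controls, and oxaliplatin replicate 1 fell among the controls, so the groups overlapped.

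The Serpina6 differences were 1.46 ± 0.75 and 1.499 ± 0.72, and neither was called. Without control replicate 4 they were 0.61 and 0.68, so each difference was more than 2 times as large with this array as without it. The deviations of the 2 probes from their group means had a correlation of 0.997 over the 8 arrays, which again rests largely on control replicate 4. The probes share 22 bases, and they gave the same order of arrays within each group.

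Both oxaliplatin replicates 1 and 2 carry a second run name in their file names, and all other arrays the first. Within the first run, with 4 control and 2 oxaliplatin arrays, the difference was -2.94 for the Serpina3n catalogue probe, 0.13 for its custom probe, -1.14 for the Serpina3c catalogue probe and 0.81 for the Serpina1c catalogue probe, and 2 Serpina probes were called higher and 1 lower. With the run name as a covariate, 3 Serpina probes were called higher and 1 lower. Of all 54636 tested probes, 1343 were called higher and 1467 lower within the first run. With the covariate these numbers were 1685 and 1570. The second run holds no control array. Each slide was read in its own scan and holds 1 group, so for every value given here the group cannot be told apart from the slide or the scan.

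The pattern of single arrays was followed to the genes most like 3 members, by the correlation of deviations from group means over 8 arrays, among 13895 other genes. For the Serpina3n custom probe these were Ppm1l (0.98), Gm4307 (0.96) and Zfp791 (0.96). For Serpina1e they were Lgals2 (0.98), Tuba1a (0.96) and Efemp2 (0.96). For the Serpina6 catalogue probe they were Csk (0.997), Tle5 (0.996) and Lhfpl2 (0.99). With so many genes and 8 arrays high correlations are found for any gene, and none of the 9 genes is a serpin. Of these 9, Lgals2 alone passed the test between the groups, at 1.70 (adjusted p = 0.0112, limma, n = 4 per group).

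Where the genes lie was set beside these values. In the reference annotation the Serpina6 gene comes first of the 10 along chromosome 12, followed by the 5 Serpina1 genes side by side and then by the Serpina3 genes, with other Serpina genes between them. The regions just upstream of the gene starts were read from RefSeq (build GRCm38.p6), which had an entry for 7 of the 10: the 5 Serpina1 genes, Serpina3c and Serpina3n. The Serpina1 promoters are near copies of each other, with 91.6% to 97.3% identity over their aligned bases. The run below, 55 bases long, is the longest found in all 5, and in no other of 32851 promoters. The capitals mark GTTAAT, the half-site of HNF1, a hepatocyte transcription factor.
Serpina1a, chr12:103863625-103863679, minus strand: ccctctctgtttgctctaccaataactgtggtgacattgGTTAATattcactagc
Serpina1b, chr12:103738200-103738254, minus strand: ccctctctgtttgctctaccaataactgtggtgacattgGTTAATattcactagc
Serpina1c, chr12:103904962-103905016, minus strand: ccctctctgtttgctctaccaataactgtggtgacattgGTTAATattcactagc
Serpina1d, chr12:103773634-103773688, minus strand: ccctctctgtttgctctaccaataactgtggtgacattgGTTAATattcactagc
Serpina1e, chr12:103956960-103957014, minus strand: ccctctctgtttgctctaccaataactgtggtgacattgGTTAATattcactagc

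The run ends between 1 and 63 bases before the annotated start. GTTAAT was present, on either strand within 250 bases before the start, in 6.43% of all promoters; among the members it was also in that of Serpina3c, on the other strand, and not in that of Serpina3n. Serpina3c and Serpina3n, the genes whose 2 probes pointed in opposite directions, also have like promoters, with 92.7% identity over 247 aligned positions. Their longest common run, 64 bases, was found in these 2 promoters only.
Serpina3c, chr12:104153905-104153968, minus strand: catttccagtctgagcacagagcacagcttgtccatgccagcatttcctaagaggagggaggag
Serpina3n, chr12:104406609-104406672, plus strand: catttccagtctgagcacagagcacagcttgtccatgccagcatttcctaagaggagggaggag

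Of the other motifs searched on both strands, the glucocorticoid half-site AGAACA was in all 7 promoters, against 16.1% of all promoters. A C/EBP-type motif, TTGCNNAA, was in those of Serpina1b, Serpina1d and Serpina1e (9.56% of all), and TATAAA in that of Serpina3c (12.4% of all). A STAT-type motif, TTCNNNGAA, was in none of the 7 (7.02% of all). Near-identical promoters hold the same letters by descent, so these matches are not independent of each other, and they describe the windows alone.

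**Figure D4:**
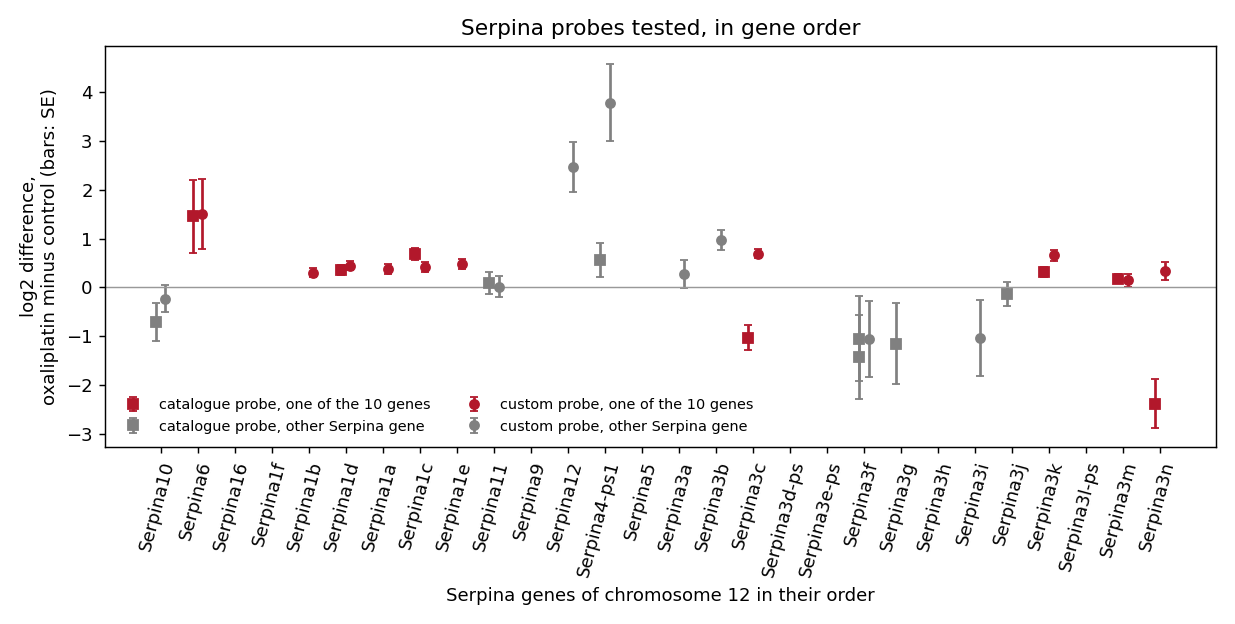
Log2 difference, oxaliplatin minus control, ± SE, of all tested Serpina probes on chromosome 12, placed in the order of the genes; red marks the 10 genes and grey other Serpina genes, squares catalogue and circles custom probes. The 5 neighbouring Serpina1 genes lie between 0.31 and 0.69 (6 of their 7 probes turn negative with arrays centred on the median of all probes), and the grey Serpina12 and Serpina4-ps1 custom probes reach 2.46 and 3.78.

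The rest of clade A was read from 1 probe per gene, of which 18.6% over all genes were called, 6.99% higher and 11.6% lower. Of 16 other Serpina genes 11 were tested, and 3 were called higher and 0 lower by limma, and the counts at an unadjusted p under 0.05 were the same. Serpina12, which encodes the secreted serpin vaspin, read -2.80, -1.17, -2.53 and -0.82 in control, where 2 of 4 arrays were above background, and 0.04, 0.56, 0.27 and 1.67 in oxaliplatin. The groups did not overlap, at 2.46 ± 0.52 (adjusted p = 0.0182, limma, n = 4 per group), and the call was lost without control replicate 3. Serpina4-ps1, a pseudogene of the kallistatin gene, was higher by 3.78 ± 0.81 (adjusted p = 0.0185, limma, n = 4 per group) on its custom probe but by 0.56 on a catalogue probe, which was not called. Serpina3b was higher by 0.97 ± 0.21 (adjusted p = 0.0183, limma, n = 4 per group) at a level near background. The last 2 calls were lost without oxaliplatin replicate 3.

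Among the 8 that were not called, Serpina3f, Serpina3g and Serpina3i, neighbours of the Serpina3 members, showed differences of -1.05, -1.15 and -1.04. For each of these, control replicates 3 and 4 stood above control replicates 1 and 2 by more than 2 log2 units, and the groups overlapped. For Serpina3g, an inhibitor of lysosomal cysteine proteases, the controls read 4.92, 4.98, 7.63 and 8.29 and the oxaliplatin arrays 6.56, 5.43, 4.71 and 4.51. Oxaliplatin replicate 1 was the highest of its group here, as it was for Serpina3n. The hormone carrier Serpina7, thyroxine-binding globulin, had a difference of -0.82, Serpina10, an inhibitor of clotting factors, -0.23, Serpina3j -0.13, Serpina11 0.09 and Serpina3a 0.28.

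Beyond clade A, Serpine2, protease nexin-1, was the 1 of 14 tested serpins of other clades that was called, at 1.68 ± 0.43 (adjusted p = 0.032, limma, n = 4 per group), and this call was lost without any 1 of the control arrays or without oxaliplatin replicate 3 or 4. Of 23 tested proteases that serpins act on and other plasma inhibitors, 6 were called higher and 0 lower by limma (9 and 3 at an unadjusted p under 0.05). Itih2, a chain of the inter-alpha-trypsin inhibitor, was higher by 0.79 ± 0.12 (adjusted p = 0.00684, limma, n = 4 per group), although its other probe differed by 0.01. The murinoglobulins Mug1 and Mug2, broad plasma protease inhibitors, were higher by 0.59 and 0.47, but turned to -0.03 and -0.16 with arrays centred on the median; the Mug2 call was lost without control replicate 3 or any 1 of the oxaliplatin arrays. Klk1, tissue kallikrein, was higher by 2.11 ± 0.52 (adjusted p = 0.0284, limma, n = 4 per group), a call likewise lost without control replicate 3 or any 1 of the oxaliplatin arrays. Of the pancreatic acinar markers, a tissue where Klk1 is abundant, 2 of 6 tested were also called higher, their summed level being 5.78 to 6.16 in control and 6.08 to 7.24 in oxaliplatin; Prss2, Cpa1, Reg1 and Try4 did not pass the filter. Their part in the Klk1 result was not tested.

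Serpina3n is known as an acute phase gene, as given above. Of 24 acute phase genes tested 2 were called higher and 2 lower, with a median of -0.31. These counts rest on the brightest probe of each gene, and other probes could differ widely. Another probe was lower for some genes, with -2.53 against -0.07 for Orm3, -2.11 against -0.54 for Saa3 and -0.90 against 0.32 for C3. For others it was higher, with 0.42 against 0.01 for Crp. Lcn2, lipocalin 2, read 9.02, 9.35, 9.63 and 9.96 in control and 8.26, 7.27, 4.11 and 4.13 in oxaliplatin, a difference of -3.55 ± 0.92 (adjusted p = 0.034, limma, n = 4 per group). This call was lost without any 1 of the control arrays or without oxaliplatin replicate 3 or 4. As for the Serpina3n catalogue probe, control replicate 4 was the highest array and oxaliplatin replicate 1 the highest of its group. Il6ra, a chain of the interleukin 6 receptor, was lower at -0.91, a call lost without control replicate 3 or oxaliplatin replicate 2, 3 or 4, while the fibrinogen gene Fgg and complement C3 were higher by 0.30 and 0.32; the calls of Fgg and C3 were lost on leaving out any array and both turned negative with arrays centred on the median. Neutrophil markers, set beside these because elastase and cathepsin G come from neutrophils, gave 0 calls by limma in 8 tested genes, 0 also at an unadjusted p under 0.05, and their summed level ran from 6.81 to 8.60 in control and from 4.63 to 8.14 in oxaliplatin.

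Serpina6 carries glucocorticoids, and of 14 genes of that axis 2 were called higher and 3 lower. Per1 and Sgk1, both induced by glucocorticoids, differed by -1.64 ± 0.33 and -1.09 ± 0.19 (adjusted p = 0.0151 and 0.0102, limma, n = 4 per group), and Lcn2, on this list too, is given above. Alb and Pck1, a gluconeogenic enzyme, were higher by 0.56 and 0.34, and both turned negative with arrays centred on the median; the Pck1 call was lost on leaving out any array, the Alb call on leaving out none. Of 16 hepatocyte transcription factors 0 were called by limma over all genes, and 2 were higher and 1 lower at an unadjusted p under 0.05. Of 23 genes for folding and secretion of serpins 2 were called lower and 0 higher by limma (3 and 0 at an unadjusted p under 0.05): Mcfd2, part of the cargo receptor that takes alpha-1-antitrypsin out of the endoplasmic reticulum, at -0.38 ± 0.08, and Atf6, a sensor of misfolded protein there, at -0.62 ± 0.15, although the mean over all Atf6 probes was 0.34. The Mcfd2 call was lost without control replicate 3 or oxaliplatin replicate 3, and the Atf6 call without any 1 of the oxaliplatin arrays.

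Some Serpina3 genes of rodents respond to growth hormone. In the list for that axis 2 of 12 genes were called higher and 1 lower. The male-biased liver enzymes Hsd3b5 and Elovl3 were called higher; Hsd3b5 was above background on 1 and Elovl3 on 3 of 4 control arrays, so the sizes are uncertain, from 6.24 to 9.73 for Hsd3b5 and from 4.84 to 7.60 for Elovl3 over the alternatives. Cux2, a female-biased repressor, was lower at -1.89 ± 0.24 (adjusted p = 0.00379, limma, n = 4 per group). All 8 mice were male by the labels.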

How the data were processed

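RNA of 8 livers was measured on Agilent one-colour arrays. Per the file headers, signals are fluorescence intensity values, background-subtracted and detrended by the authors with Feature Extraction 12.0.3.1 (the submitters' processing notes name 10.7, and limma). The deposited series matrix holds log2 values whose normalization is not given in the sources used here. The deposited flags, used as a score of 0 or 1, mark spots well above background, saturated or outlying.

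The 75th percentile of each array was subtracted from log2 signals, outlier spots were left out, and probes well above background on at least 4 of 8 arrays were tested with limma 3.58.1 in R 4.3.3, Benjamini-Hochberg threshold 0.05. Lists used the brightest probe of each gene. Names came by accession from RefSeq (GRCm38.p6): 47985 of 48257 probes with an accession matched. The number of arrays limits the precision.

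The members and lists were chosen with earlier results of these data known. Named are all member probes, all tested other Serpina genes, per list the called genes of lowest adjusted p, at most 4 (all where 5 or fewer were called), and the 3 genes most like 3 members; cell type lists and p53 targets are given mainly as counts. On simulated data with 200 of 13896 genes changed, limma found 71% of changes of 1 log2 unit and 88% of changes of 2. Of its 169 calls, 10 were false. Smaller changes, such as those of the Serpina1 probes, and differences between slides or scans were not simulated. Alternatives covered background correction, scaling, filter, variance model, run name, replicate block and each array left out. Python 3.11.15, pandas 2.3.3 and Biopython 1.88 were used for sequences and tables.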

Additional observations from a re-analysis of the deposited data

Results flagged for a closer look

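In 34 groups of 4 arrays, 1 array lay far from the other 3, in proportion to the spread of its group, in 5 groups, and chance flags about 1 group in 20. The rule does not go by distance alone. Control replicate 4 of the Serpina6 catalogue probe, at 3.13 with the next control at 6.21, was not flagged. For the Serpina1c catalogue probe control replicate 4 was the lowest control at 9.004, and for the Serpina1c custom probe the same array was lowest at 10.997. Oxaliplatin replicate 1 was the highest array of its group for the Serpina3m custom probe at 9.12, for the Serpina3n catalogue probe at 7.74 and for the Serpina3n custom probe at 9.61. The 2 Serpina1c probes are named for the same gene, as are the 2 Serpina3n probes, so these are not counted as 5 separate events.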

How the results depend on the processing

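Each of the 17 probe differences was computed under 22 alternatives. Of these 374 values, 302 kept direction and side of the threshold, 50 lost a call, 9 gained one and 13 changed sign. With arrays centred on the median of all probes, Serpina1a was -0.25, Serpina1b -0.32, Serpina1c custom -0.22, Serpina1d catalogue -0.27 and custom -0.18, Serpina1e -0.14, Serpina3k catalogue -0.31, Serpina3m catalogue -0.45 and custom -0.48, and Serpina3n custom -0.29. The Serpina3m catalogue probe was also -0.102 with quantile normalization and -0.101 in the series matrix, and its custom probe -0.0434 with normexp. Of other genes, median centring turned Mug1 to -0.034, Mug2 to -0.16, Alb to -0.070, Pck1 to -0.29, Fgg to -0.33, C3 to -0.30, Serpina3a to -0.35, Serpina11 to -0.54, Zfp791 to -0.16 and Csk to -0.47. Over the mean of all probes of a gene C3 was -0.0375 and Atf6 0.34. On leaving out each array Serpina11 ran from -0.0852 to 0.29, Serpina3j from -0.28 to 0.0685, Csk from -0.00777 to 0.25 and Tuba1a from -0.22 to 0.0872. Tuba1a was 0.0666 with quantile normalization, 0.0844 with the percentile over detected probes, 0.0647 in the series matrix, 0.0805 with cyclic loess and 0.23 both within the first run and with the run as a covariate.

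Serpina probes called higher numbered 3 with quantile normalization, 0 with median centring, 3 in the series matrix, 3 with no filter, 2 within the first run, 3 with the run as a covariate and 5 to 7 on leaving out each array, against 7. They numbered 5 with normexp and 6 with cyclic loess. With the percentile over detected probes, the filter on all 8 arrays and an intensity trend in the variance model they numbered 10 each. Over all tested probes 5463 of 54636, 3521 of 38453 and 4246 of 54636 were called higher in these settings. Serpina probes called lower numbered 4 with median centring, 1 within the first run, 1 with the run as a covariate and 1 to 2 on leaving out each array (0 with the replicate block, given below, and 2 otherwise). All probes called numbered 38713 with median centring, 4448 in the series matrix, 22077 with no filter, 2810 within the first run, 3255 with the run as a covariate and 4804 to 8537 on leaving out each array, against 10065. Listed genes called were 126 with median centring, 26 within the first run and 25 to 45 on leaving out each array, against 48. Calls higher made up 40.3% of all calls, 61.7% with the 75th percentile over probes detected on all arrays, 54.8% with cyclic loess, 2.14% with median centring, 82.7% with no filter and 25% with normexp. With the replicate block 2 Serpina probes were called higher and 0 lower, 3815 probes in all and 19 listed genes. As deviations from group means, same-numbered arrays had correlations of -0.22 to 0.02 and differently numbered arrays -0.32 to 0.38. Same-numbered arrays were thus not more alike, but these few values cannot decide whether the numbers pair the samples. The cause of these changes was not tested. The number of arrays, 4 per group, limits what can be called.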
